A study of Mus musculus with 8 samples.

Results

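The genes described here are 53 genes of amino acid breakdown and the urea cycle, taken by symbol from a table of 27179 mouse genes measured by RNA sequencing of liver. They were chosen by name for their place in these pathways and by no cutoff on a measured value, though with earlier results of these data known. All 53 had a row with reads. The libraries came from the livers of 8 mice of the strain C57BL/6NHsd, all adult males that had gone 6 h without food, of which 4 were wild-type and 4 were homozygous for V227A, a germline valine-to-alanine substitution in *Ppara*, the gene of the lipid-sensing nuclear receptor PPARɑ. The variant allele was made by adenine base editing of zygotes and descended from a heterozygous founder backcrossed to the same strain, and because it is germline it was present in every tissue and not in hepatocytes alone. For each gene the values used here hold 1 average level over all 8 libraries of both genotypes, so each level below is the authors' mean, carries no spread between mice, and cannot be split by genotype. No difference between V227A and wild-type liver is therefore given for any gene.

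The liver is the main site where surplus amino acids are broken down. Transaminases and dehydratases remove the nitrogen, the carbon skeletons pass to glucose, ketone bodies or the tricarboxylic acid cycle, and the ammonia is made into urea. In the urea cycle, carbamoyl phosphate made in mitochondria is joined to ornithine to give citrulline, aspartate brings the second nitrogen as argininosuccinate is formed, and arginase releases urea and returns ornithine. These enzymes are abundant in hepatocytes, several of them respond to fasting and glucocorticoids, and PPARɑ is known to affect genes of amino acid metabolism in rodent liver besides its better known fatty acid targets.

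Levels are given as mean log2 CPM, where CPM is the reads of a gene for each 1000000 reads of a library, and as estimated reads per library at the mean library size of 27473997 reads. A long transcript yields more reads than a short one at the same number of molecules, so levels of different genes are ordered per kilobase, with the longest annotated transcript unless another length is named, while reads per library and shares of all CPM tell how much sequence a gene took and are not corrected for length. As a group the genes were among the most abundant of the liver. Their median level was 8.45 on the log2 CPM scale, against 1.89 over the 18937 genes with reads, and 98.1% of those genes lay below it. Per kilobase the median was 125 CPM against 1.40 over all genes with reads and an annotated length. Of the 500 genes of highest CPM, which are 2.64% of genes with reads, 37 belonged to the 53. Of the 1000 genes of highest CPM, 41 did. These ranks are not corrected for length, and per kilobase 27 were among the highest 500 and 39 among the highest 1000. Together the 53 genes took 3.29% of all CPM.

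**Figure D1:**
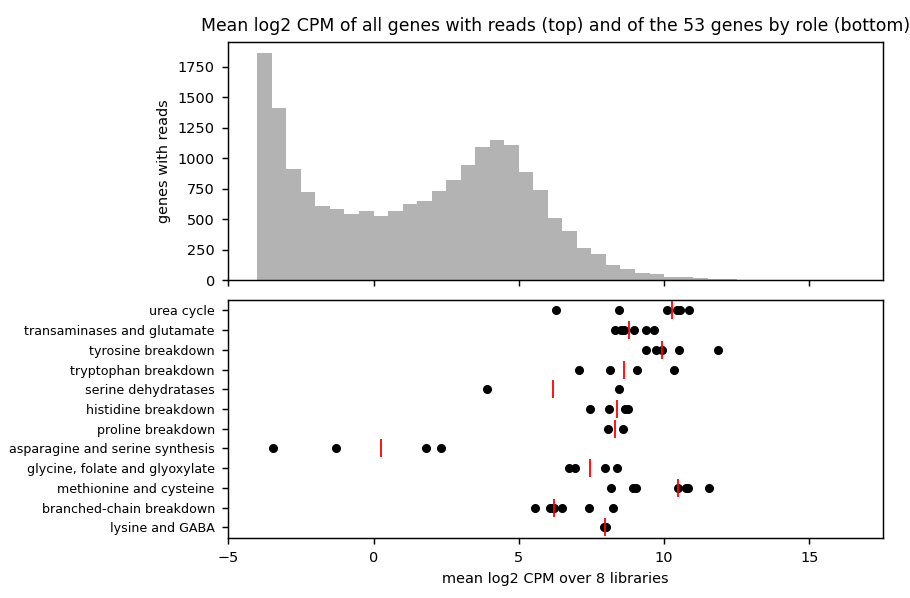
Upper panel, number of genes with reads (y axis) by mean log2 CPM over 8 libraries (x axis); lower panel, the 53 genes on the same x axis, 1 black point for each gene, by pathway group, with the group median as a red bar. The 4 enzymes of asparagine and serine synthesis lie between -3.46 and 2.32 and the other 49 genes between 3.91 and 11.86.

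The tissue label was checked against marker genes. All 6 hepatocyte markers found in the table had reads, summing to 98100 CPM, and *Alb*, the serum albumin gene, had the highest level of all genes. Kidney markers summed to 0.0364 CPM with 2 of 5 having reads, and of 5 markers of the acinar pancreas only *Ctrb1* had reads. The 4 intestine markers summed to 88.9 CPM, of which *Fabp2*, a fatty acid binding protein gene that liver also expresses, gave 86.1. The 4 Kupffer cell markers summed to 156 CPM and the 4 endothelial markers to 107 CPM. In a bulk sample, fewer cells of a type and less RNA per cell cannot be told apart, and the part of other cell types in the levels below was not tested.

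Among the 6 urea cycle genes, the arginase gene and the argininosuccinate synthase gene stood highest and the gene of the allosteric activator stood lowest. *Arg1*, cytosolic arginase, had a mean log2 CPM of 10.45, or 38554 reads per library, and 950.1 CPM per kilobase. *Ass1*, which joins citrulline to aspartate, had 10.55, or 41250 reads, and 885 CPM per kilobase. *Asl*, which splits argininosuccinate into arginine and fumarate, had 10.10, or 30101 reads, and 454 CPM per kilobase. These 3 are the cytosolic enzymes of the cycle, and all lay above the mitochondrial ones per kilobase. *Cps1*, the mitochondrial enzyme that fixes ammonia as carbamoyl phosphate, had the most reads of the 6, 50733 per library at a log2 CPM of 10.85, but its transcript of 5555 bases brought it to 332 CPM per kilobase. *Otc*, which makes citrulline, had a log2 CPM of 8.45, or 9595 reads, and 117 CPM per kilobase. *Nags*, which makes the *N*-acetylglutamate that *Cps1* protein needs for activity, had 6.28, or 2132 reads, and 28.6 CPM per kilobase. The range from *Arg1* to *Nags* was 33.2-fold. The order was the same per kilobase of coding sequence, where *Otc* rose to 329 and *Cps1* to 410.4 CPM per kilobase, while with the median transcript length *Ass1* came above *Arg1*.

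On the GRCm38 build the urea cycle genes lie apart from each other, each on a chromosome of its own. *Cps1* spans chr1:67123026-67231259 on the plus strand in 38 exons, *Otc* chrX:10252305-10321024 on the plus strand, and *Ass1* chr2:31470207-31520672 on the plus strand. *Asl* spans chr5:130011258-130029247 on the minus strand, *Arg1* chr10:24915221-24927484 on the minus strand, and *Nags* chr11:102145513-102149477 on the plus strand.

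The level of *Ass1* has a particular uncertainty, noticed after its value was seen. *Gm5424*, annotated as a processed pseudogene of argininosuccinate synthase, is an intronless copy of 1240 bases at chr10:62071123-62072362 on the plus strand. It had a log2 CPM of 11.09, or 59949 reads per library, 1.45 times the 41250 reads assigned to *Ass1*. The annotated copy matches bases 203 to 1442 of the *Ass1* transcript of 1696 bases, which is the coding sequence of *Ass1*, bases 203 to 1441, and 1 base more. Over these 1240 bases the pair differ at 6 positions, an identity of 99.5%, with no gap. Counted from the first base of the *Ass1* transcript, with the *Ass1* base first, the differences are T601C, T631C, A722T, G858C, T1213C and C1345T. The longest stretch without a difference is 398 bases. The 150-base coding window that holds the most differences is shown for both, in the direction of transcription, to let the likeness be seen, and the capitals mark the 3 bases that differ.
Ass1 bases 587 to 736: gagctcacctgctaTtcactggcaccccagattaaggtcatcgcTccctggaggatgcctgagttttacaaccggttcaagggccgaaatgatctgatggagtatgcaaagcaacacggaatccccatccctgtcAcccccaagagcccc
Gm5424 bases 385 to 534: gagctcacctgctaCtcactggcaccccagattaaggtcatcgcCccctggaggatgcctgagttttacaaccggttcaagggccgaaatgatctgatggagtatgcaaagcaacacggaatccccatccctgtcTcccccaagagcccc
The *Gm5424* window is chr10:62071507-62071656, and the *Ass1* window is spliced from exons between chr2:31486510 and chr2:31492352. Outside the aligned part *Ass1* has 456 bases that this copy lacks, although RefSeq gives *Gm5424* as a longer transcribed pseudogene of 1550 bases. Which gene a read from the shared part was assigned to depends on how reads with several matches were counted, which is not given in the sources used here, so the level of *Ass1* is uncertain. With the reads of both summed, the level would be 101199 reads per library, a log2 CPM of 11.85 and 2172 CPM per kilobase of *Ass1* transcript, above *Arg1* and ranking 35 among all genes.

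The 6 transaminase and glutamate genes ran from 125 to 245.5 CPM per kilobase, a range of 1.96-fold that widened to 5.62-fold with the median transcript length. *Got1*, the cytosolic aspartate transaminase, had a log2 CPM of 8.98 and 13881 reads per library, and *Got2*, the mitochondrial form, had 8.31 and 8701 reads. Per kilobase *Got1* was 1.96-fold above *Got2*. *Gpt2*, the mitochondrial alanine transaminase, had 9.38 and 18264 reads, and *Gpt*, the cytosolic form, had 8.53 and 10121 reads. The order of that pair depended on the length used: *Gpt2* was 1.39-fold higher per kilobase of the longest transcript and 1.71-fold higher per kilobase of coding sequence, but *Gpt* was 1.13-fold higher per kilobase of the longest protein-coding transcript. *Glud1*, glutamate dehydrogenase, which releases ammonia from glutamate, had 9.67, 22304 reads and 239.5 CPM per kilobase. *Gls2*, the liver glutaminase, had 8.63, 10904 reads and 154 CPM per kilobase.

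The tyrosine pathway held the most abundant of the 53 genes. *Hpd*, hydroxyphenylpyruvate dioxygenase, the second enzyme of the pathway, had a log2 CPM of 11.86, or 102380 reads per library, and 2654 CPM per kilobase, and it ranked 34 by level and 26 per kilobase among all genes. *Tat*, tyrosine aminotransferase, the glucocorticoid-responsive first step, had 10.51, 40164 reads and 616 CPM per kilobase. *Fah*, fumarylacetoacetate hydrolase, the last step, stood next to *Tat* with 9.93, 26785 reads and 615 CPM per kilobase. *Hgd*, homogentisate dioxygenase, had 9.39, 18478 reads and 395 CPM per kilobase. *Gstz1*, maleylacetoacetate isomerase, had 9.72, 23134 reads and 277 CPM per kilobase, or 508 per kilobase of its longest protein-coding transcript. All 5 genes were thus at or above 277 CPM per kilobase, and *Hpd* was the highest under each of the 4 gene lengths tried.

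In the kynurenine pathway of tryptophan, the level per kilobase of longest transcript was highest at the entry. *Tdo2*, tryptophan dioxygenase, had a log2 CPM of 10.33, 35453 reads per library and 376 CPM per kilobase. *Kmo*, kynurenine monooxygenase, had 8.14, 7753 reads and 76.9 CPM per kilobase, and *Kynu*, kynureninase, had 7.08, 3707 reads and 48.6 CPM per kilobase. *Haao*, which makes the precursor of quinolinate, had 9.08, 14899 reads and 174 CPM per kilobase, or 393 per kilobase of its longest protein-coding transcript, which would put it above *Tdo2*. Of the other dioxygenases that open the tryptophan ring, *Ido2* was 16.4-fold below *Tdo2* per kilobase, or 25.6-fold with the median transcript length, and *Ido1* had 1 read in all 8 libraries.

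**Figure D2:**
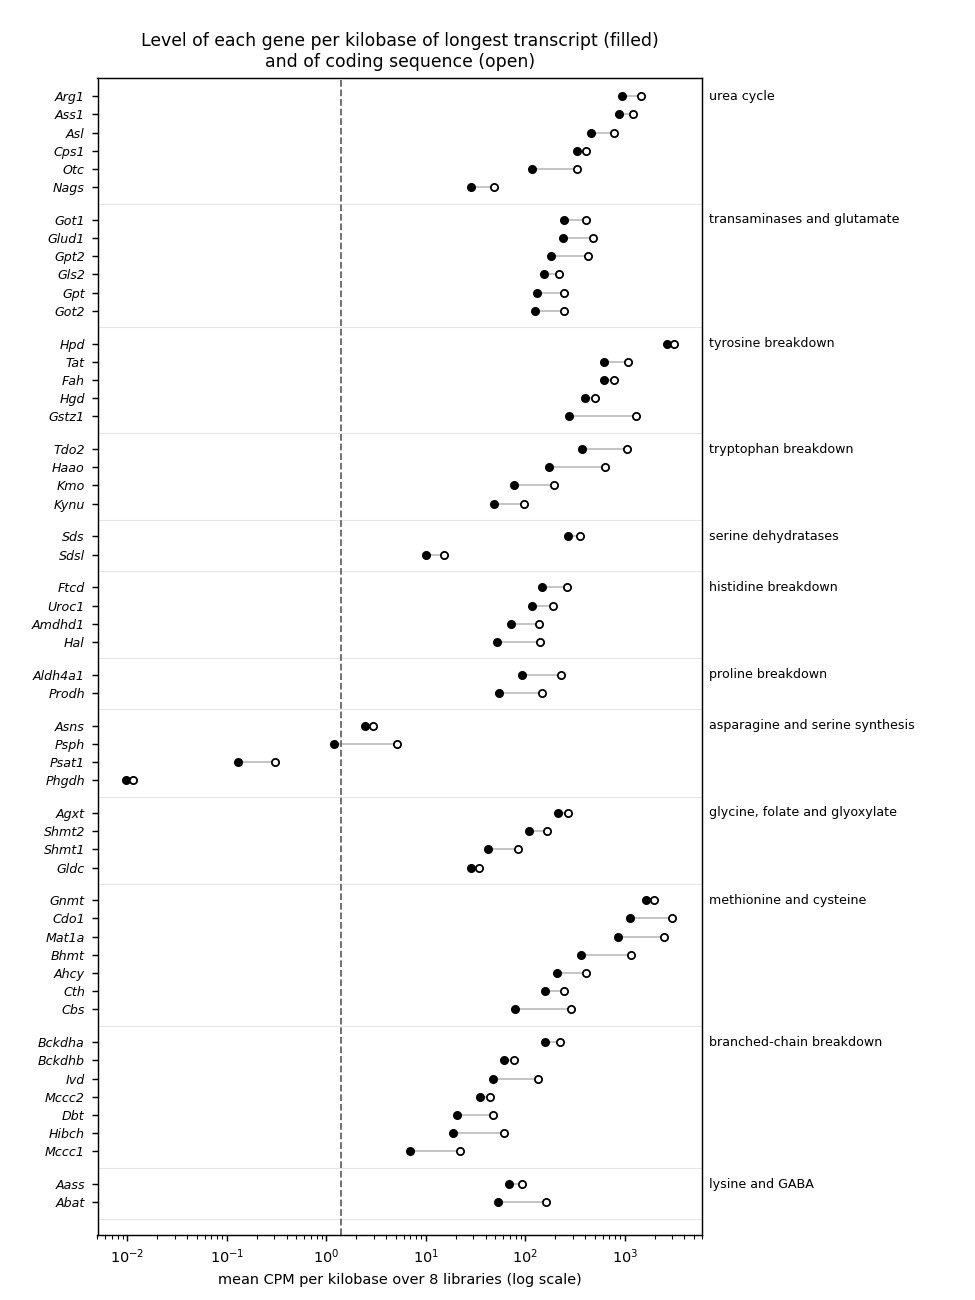
Mean CPM per kilobase over 8 libraries (x axis, log scale) for each of the 53 genes (rows, grouped by pathway and ordered within it); filled circles use the longest annotated transcript, open circles the coding sequence, and the dashed line marks the median of all genes with reads, 1.40. *Hpd* stands highest at 2654 and *Phgdh* lowest at 0.00961.

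The 2 serine dehydratases were far apart. *Sds*, which turns serine into pyruvate for glucose synthesis, had a log2 CPM of 8.45, 9604 reads per library and 271 CPM per kilobase. *Sdsl*, the related serine dehydratase-like gene, had 3.91, 410.5 reads and 10.1 CPM per kilobase, 26.8-fold lower. The pair are neighbours on chromosome 5, on opposite strands with 3715 bases between them, so adjacent genes of like sequence family differed widely in level. In the same way *Hal* and *Amdhd1* of the histidine pathway lie on opposite strands of chromosome 10 with 4033 bases between them, and they differed by far less, at 51.7 and 72.4 CPM per kilobase.

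The 4 histidine genes encode successive steps from histidine to glutamate. *Hal*, histidine ammonia-lyase, had a log2 CPM of 8.10 and 7555 reads per library, and *Uroc1*, urocanase, had 8.65 and 11023 reads. *Amdhd1*, which opens the imidazolone ring, had 7.45 and 4815 reads, and *Ftcd*, which passes the formimino group to folate, had 8.75 and 11856 reads. Per kilobase they ran from 51.7 for *Hal* to 148 for *Ftcd*, a range of 2.86-fold, or of 4.32-fold with the longest protein-coding transcript, where *Ftcd* stood at 223. The lowest gene depended on the length. With coding length *Amdhd1* was lowest at 137.1 against 139.5 for *Hal*, and with median transcript length at 72.4 against 171.

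Both proline genes were in the same range. *Prodh*, proline dehydrogenase, had a log2 CPM of 8.07, 7368 reads per library and 54.3 CPM per kilobase, or 112 per kilobase of its longest protein-coding transcript. *Aldh4a1*, which oxidises the product to glutamate, had 8.59, 10551 reads and 92.7 CPM per kilobase. With the median transcript length *Prodh* came above *Aldh4a1*, at 336 against 113.5 CPM per kilobase. *Prodh2*, whose enzyme acts on hydroxyproline, was 2.62-fold above *Prodh* per kilobase of longest transcript, but only 1.29-fold with coding length and 1.01-fold with median transcript length, so no order of these is stated. In the synthetic direction, *Aldh18a1*, which starts proline synthesis from glutamate, had 0.142 CPM per kilobase from 13.8 reads per library, and *Pycr1*, which acts at its last step, had 0.0220 from 1.76 reads, both below the median gene at 1.40.

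The synthetic enzymes listed among the 53 were its 4 least abundant genes per kilobase, under each of the 4 gene lengths tried. *Asns*, asparagine synthetase, had a log2 CPM of 2.32, or 135.5 reads per library, and 2.45 CPM per kilobase. *Psph*, the phosphatase of the last step of serine synthesis, had 1.82, or 94.9 reads, and 1.20 CPM per kilobase, which became 1.99 with the longest protein-coding transcript and 5.12 with coding length, above *Asns* at 2.93. *Psat1*, the aminotransferase of the middle step, had -1.28, or 9.28 reads, and 0.129 CPM per kilobase. *Phgdh*, the dehydrogenase of the first step, had -3.46, an estimate of 4 reads in all 8 libraries together. Per kilobase, transcripts of serine synthesis thus lay from 0.00961 CPM at the first step to 1.20 at the last, against 1.40 for the median gene and 271 for *Sds*, which consumes serine. The 4 synthetic genes together took 0.000874% of all CPM.

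The genes of glycine, folate and glyoxylate metabolism had a median of 75.8 CPM per kilobase, below the median of 125 for all 53 genes. *Agxt*, which clears glyoxylate, had a log2 CPM of 8.39, 9193 reads per library and 215 CPM per kilobase, 3.18-fold above the mitochondrial *Agxt2*. *Shmt2*, the mitochondrial serine hydroxymethyltransferase, had 7.96, 6851 reads and 109 CPM per kilobase. *Shmt1*, its cytosolic counterpart, had 6.93, 3345 reads and 42.6 CPM per kilobase, 2.56-fold below *Shmt2*. *Gldc*, the decarboxylase of the glycine cleavage system, had 6.74, 2933 reads and 28.3 CPM per kilobase. Of the other glycine cleavage genes *Amt* had 728 reads per library, *Gcsh* 3122 and *Dld* 2578.

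Methionine and cysteine genes took the largest share of all CPM of any group, 0.921%, against 0.767% for tyrosine and 0.627% for the urea cycle. *Mat1a*, which makes the methyl donor *S*-adenosylmethionine in adult liver, had a log2 CPM of 11.53, 81229 reads per library and 853 CPM per kilobase. *Gnmt*, glycine *N*-methyltransferase, which uses up surplus methyl donor, had 10.75, 47189 reads and 1659.5 CPM per kilobase. *Cdo1*, cysteine dioxygenase, the committed step from cysteine toward taurine and sulfate, had 10.82, 49617 reads and 1132 CPM per kilobase. These 3 led the group with each length but the median transcript length, where *Ahcy* at 982 CPM per kilobase came above *Mat1a* at 922. *Bhmt*, which remethylates homocysteine with betaine, had 10.48, 39258 reads and 361 CPM per kilobase, or 574 per kilobase of its longest protein-coding transcript. *Ahcy*, which releases homocysteine, had 9.04, 14466 reads and 207 CPM per kilobase. The transsulfuration enzymes that carry homocysteine on to cysteine were lowest: *Cth* had 8.18, 7967 reads and 159.8 CPM per kilobase, and *Cbs* had 8.93, 13405 reads and 78.4 CPM per kilobase. *Mat2a*, the form found in most other tissues, was 48.2-fold below *Mat1a* per kilobase, or 11.0-fold with the median transcript length, and *Bhmt2* was 3.85-fold below *Bhmt*, or 6.13-fold with the longest protein-coding transcript.

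**Figure D3:**
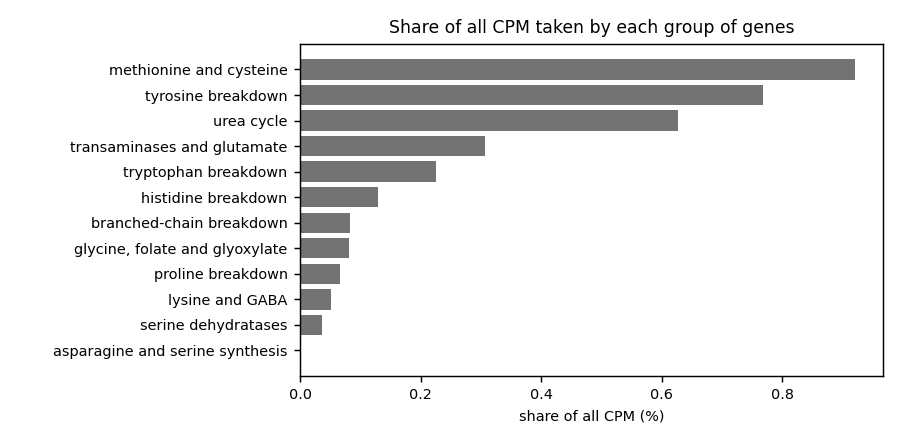
Share of all CPM (x axis, percent, from 0) taken by the summed genes of each pathway group (bars), from the mean levels over 8 libraries. Methionine and cysteine genes take 0.921% and tyrosine genes 0.767%, and the bar of the 4 synthetic enzymes, 0.000874%, is too short to see.

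Apart from the synthetic enzymes, the 7 branched-chain genes had the lowest group median per kilobase, 34.9 CPM. *Bckdha* and *Bckdhb* encode the subunits that together form the decarboxylase of the branched-chain ketoacid dehydrogenase. *Bckdha* had a log2 CPM of 8.24, 8323 reads per library and 159.5 CPM per kilobase, and *Bckdhb* had 6.50, 2489 reads and 61.3 CPM per kilobase, 2.60-fold lower. *Dbt*, the transacylase core of the same complex, had 6.09, 1870 reads and 20.6 CPM per kilobase. Its place depended on the length, since with the median transcript length *Dbt* stood at 130.5 CPM per kilobase, between *Bckdha* at 229 and *Bckdhb* at 93.4. *Ivd*, isovaleryl-CoA dehydrogenase of the leucine pathway, had 7.43, 4735 reads and 47.0 CPM per kilobase. *Mccc2* and *Mccc1*, the subunits of the next leucine enzyme, had 6.21 and 5.57, with 2037 and 1299 reads. *Mccc2* was 4.98-fold above *Mccc1* per kilobase of longest transcript and 1.81-fold above per kilobase of the longest protein-coding transcript. *Hibch*, of the valine pathway, had 6.16, 1965 reads and 19.0 CPM per kilobase, or 39.1 per kilobase of its longest protein-coding transcript. Of the transaminases that begin branched-chain breakdown, which are outside the 53, *Bcat2* had 889 reads per library and 15.5 CPM per kilobase. With the longest transcript *Bcat2* lay between *Mccc1* and *Hibch*. It lay below *Mccc1* with the median transcript length, at 20.1 against 32.2 CPM per kilobase. The same held with the longest protein-coding transcript, at 15.5 against 19.3. *Bcat1* had 1 read in all 8 libraries. *Bckdk*, the kinase that inhibits the dehydrogenase, had 428 reads.

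*Aass*, which begins lysine breakdown, had 7055 reads per library and 69.4 CPM per kilobase. *Abat*, the GABA transaminase, was close to it with a log2 CPM of 7.94, 6742 reads and 52.9 CPM per kilobase of longest transcript. With the median transcript length *Aass* was 2.19-fold above *Abat*, while with coding length *Abat* was 1.77-fold above *Aass*.

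Related enzymes were set side by side per kilobase. The 6 pairs within the 53 were listed by name, while the 6 pairs of a member with a related gene outside the list were chosen after values were seen and are a description only. In the latter the largest ratio was that of *Arg1* over *Arg2*, the mitochondrial arginase known from kidney, which had 6.10 reads per library against 38554, a ratio of 6106 per kilobase, or 12847 with the median transcript length. Forms known from liver exceeded the other form by 48.2-fold in *Mat1a* and 6106-fold in *Arg1* with the longest transcript.

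**Figure D4:**
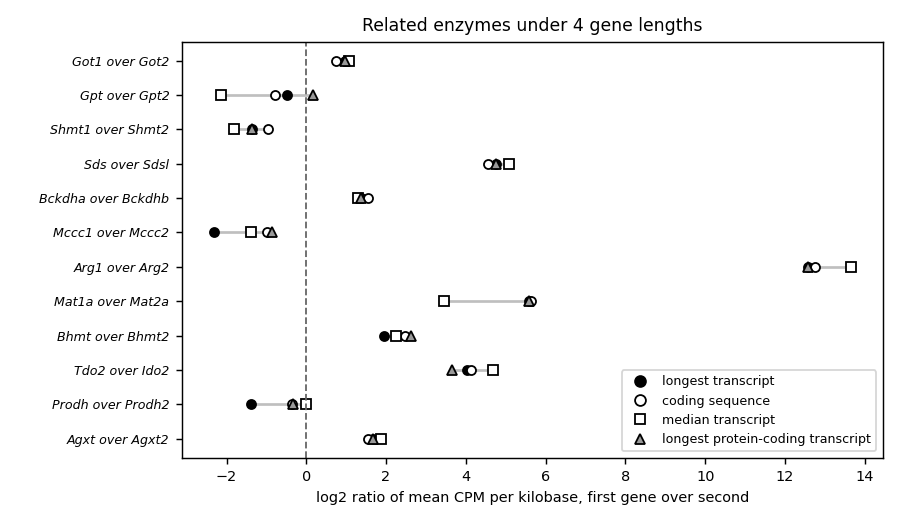
Log2 ratio of mean CPM per kilobase over 8 libraries, first gene over second (x axis), for 12 pairs of related enzymes (rows) under 4 gene lengths; the dashed line marks equal levels. *Gpt* over *Gpt2* lies on both sides of the line, from -2.14 to 0.17, and *Prodh* over *Prodh2* touches it at -0.02.

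A further 50 genes of the same pathways, listed by name and outside the 53, served for comparison. Of these, 47 had reads and 43 had at least 10 reads per library, and their median log2 CPM was 6.81, with 44.9 CPM per kilobase. The lowest per kilobase among those with reads was *Bcat1*. *Dao*, *Tdh* and *Gad1* had no reads, which allows up to 0.0137 CPM, the level of 3 counts in 8 libraries.

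Several levels carry an uncertainty of read assignment like that of *Ass1*. Stretches of 50 bases were compared between each gene's longest transcript and every other annotated gene, and 35 of the 53 shared none. In 6 genes over 10% of stretches were also found in other annotated genes. These were *Ahcy* at 77.0%, *Phgdh* at 63.1%, *Ass1* at 55.3%, *Aldh4a1* at 35.5%, *Got2* at 32.3% and *Bhmt* at 11.8%. For *Aldh4a1* the match was *Gm21969*, an overlapping gene at the same place rather than a copy elsewhere. Its exons cover 32.5% of the *Aldh4a1* exon bases on the same strand. Of the genes that matched these 6, *Gm5424* was the only one that had a row with reads. The closest matches of *Ahcy*, *Phgdh*, *Aldh4a1*, *Got2* and *Bhmt* had no row at all, so whether they took reads is unknown. Exons of 11 genes overlap a gene on the opposite strand, over more than 10% of their exon bases in *Bckdha*, *Sds*, *Nags*, *Gstz1* and *Psph*. The libraries were stranded, but whether the counting used strand is not given in the sources used here, so for these genes the reads of the partner may be included. For *Psph*, with 94.9 reads per library, the overlapping *Cct6a* had 3074 reads, and for *Bckdha* the overlapping *B3gnt8* had 5.63. For *Sds*, with 9604 reads per library, the overlapping *Plbd2* had 2361. For *Gstz1*, with 23134, the overlapping *Pomt2* had 590. The gene that overlaps *Nags* had no row.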

How the data were processed

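Liver RNA of 4 wild-type and 4 V227A mice was made into stranded poly-A libraries and sequenced in pairs. Per the labels and methods, the authors trimmed reads with Trimmomatic, checked them with FastQC, aligned them to GRCm38/mm10 with STAR, counted them with featureCounts and used edgeR; versions, annotation and the handling of strand and multiple matches are not given in the sources used here. The deposited table holds 0 columns per library. Its average log2 CPM over the 8 libraries was used, as the authors' mean. Its 4 columns of the authors' own comparison (log2 fold change, F statistic, p-value and false discovery rate of V227A against wild-type) were not used, so no test was made.

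Reads per library were estimated from the lowest value, log2 CPM -3.78, at which 8242 genes lie, taken as no reads, with an assumed prior count of 2. This gave a mean library of 27473997 reads. Of 2378 genes with 1 to 5 reads in all 8 libraries together, 99.92% came within 0.1 of a whole number in that total. The depth of each library is unknown. The step from log2 CPM back to reads was tested on simulated counts made with the same formula and prior count. That test covers the arithmetic only and cannot check the assumed prior count. Lengths and positions came from GENCODE vM21 (GRCm38), which covered 94.82% of genes with reads. *Ass1* and *Gm5424* were aligned with Biopython 1.88, and tables were made with pandas 2.3.3. All 53 genes are named, some results of genes outside the 53 are not reported here, and the genes and lists were chosen with earlier results of these data known. Alternatives were the set of genes compared, the denominator of shares, and 3 other gene lengths, of which the longest protein-coding transcript was added after seeing the data.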

Additional observations from a re-analysis of the deposited data

How the results depend on the processing

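The share of genes with reads that lay below the median of the 53 genes was 98.1%, and it was 97.0% among the 11711 genes with a log2 CPM of at least 0 and 97.4% per kilobase. The share of all CPM was 3.29%, and it was 3.28% with the prior count not removed, 3.47% without mitochondrially encoded genes and 4.11% without the 10 genes of highest level. Of the 6 pairs of related enzymes, 6 kept their order with median transcript length and with coding length and 5 with the longest protein-coding transcript, where the log2 ratio of *Gpt* over *Gpt2* became 0.17. Of 16 ratios in all, 4 were of unlike proteins computed after values were seen and left out of the report. Summing *Ass1* with *Gm5424*, chosen after seeing the data, moved its log2 CPM from 10.55 to 11.85.

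Depth per library and spread between mice are unknown. The planned test of V227A against wild-type and its DESeq2, filter and leave-one-out alternatives were not run. They need values per library, and the deposited table holds 0 columns per library. No paired analysis was possible because the level used is an average over all 8 libraries. The paper also describes no pairing of wild-type with V227A mice, so values per library alone would not define pairs.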
